A study of Arabidopsis thaliana with 15 samples.

Results

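The data are the list of H3K4me2 peaks of young Arabidopsis thaliana seedlings, that is, the stretches of chromatin in which histone H3 dimethylated at lysine 4 was enriched over total histone H3. Every peak of the list was taken, 23189 of the 54366 peaks in the 3 lists of the series, and each was placed on the annotated genes by its ends and its summit, the point of strongest signal. The libraries came from whole seedlings of the accession Col-0 at 8 days of age, and were made by ChIP-seq on native chromatin, which micrococcal nuclease cuts without prior crosslinking. H3K4me2 and H3 were each profiled in bdrs, a triple mutant, in the fpa single mutant fpa-7 and in wild-type plants, with 1 library per assay and genotype. The peak names say that pooled H3K4me2 was called against pooled H3. The labels do not say which of these 6 libraries entered the pools, or which genotype a peak comes from, so the mutants cannot be compared with wild type. There is no replicate error, and the depth behind the peaks is unknown. Everything below describes features of this genome in pooled chromatin of a mixed tissue, in which a mark on few cells and a weak mark on many cannot be told apart.

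Dimethylation of lysine 4 is the middle step of a ladder from monomethyl to trimethyl lysine. In Arabidopsis the ATX and ATXR proteins and the COMPASS subunits WDR5A and ASH2R add these groups, and LSD1-like proteins and JmjC proteins take them off. H3K4me3 marks the start of transcribed genes, H3K36me3 is laid down over transcribed gene bodies, and H3K4me2 in plants lies in genes with little tie to how strongly they are transcribed. FPA is an RNA-binding protein that acts in the choice of RNA 3′ ends, and the BDR proteins are known to act at the borders of genes.

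H3K4me2 peaks were short and moderate in strength. The median width was 981 bp, with 365 bp at the 5th percentile, 2016 bp at the 95th and 6162 bp for the widest peak. The fold enrichment over H3, which is the authors' value for each peak and ranks peaks only within this list, had a median of 3.37, with 1.18 for the lowest peak, 5.87 at the 90th percentile and 13.4 for the highest. The −log10 p of the peaks ran from 8.58 to 471. Broader peaks were also stronger: the 4638 narrowest, up to 623 bp, had a median fold of 2.59 and the 4638 widest, from 1417 bp, had 3.89. Of the peaks, 10841 (46.8%) had exactly the same fold and −log10 p as another peak of the list, and whether each fold was set against the H3 signal at its own place cannot be told. The peaks covered 24.6 Mb, or 20.6% of the 5 nuclear chromosomes, and the median gap between neighbouring peaks was 2271 bp.

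A pair of peaks shared the highest fold, 13.4. They lay on AT4G30090, a gene without a symbol, on chromosome 4 from 14710368 to 14711694 (TAIR10, counted from 1), and on NAC004, a gene of the NAC family of transcription factors, on chromosome 1 from 435587 to 436989. Among genes with a symbol, to which the names below are limited, NAC004 was followed by VPS24.2, for a subunit of the ESCRT-III complex of endosomal sorting (fold 12.5), the kinesin gene ATK4 (12.4) and CYP94C1, whose enzyme oxidises the jasmonate hormone (12.1). CYP94C1 had the highest −log10 p of all peaks, 471. TTL2, a tetratricopeptide protein gene, had a fold of 12.0, and DFL1, whose enzyme joins auxin to amino acids, had 11.8. SWI1, MMD1 and ASY1, all needed for meiosis, had folds of 11.7, 11.4 and 10.9. The others among the first 12 genes with a symbol were the cellulose synthase-like gene CSLD6 (11.4), the phosphatase gene PLL1 (11.1) and PAB6, for a poly(A)-binding protein (11.1). Of these 12 genes, 3 carried H3K36me3 (ATK4, CYP94C1 and PLL1), and all but CSLD6 carried H3K4me3.

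The weakest peaks kept, ranked by −log10 p and not by fold, were on genes of many kinds. AIB, a bHLH factor gene, held a peak of fold 1.90, at −log10 p 8.58. IAA28, for a repressor of auxin response, held one with a fold of 1.84. RPP5, for a disease resistance protein, held 1 of the weakest peaks as well, at a fold of 1.96, and the gibberellin-degrading enzyme gene GA2OX8 held another at the same fold.

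H3K4me2 followed the genes along the chromosomes and thinned out towards the centromeres. Chromosomes were cut into bins of 500 kb, and a bin was called gene-poor where protein-coding genes covered less than 35% of it. In the 48 gene-poor bins, 24.0 Mb in all, peaks covered 4.09% of the bases, against 24.8% in the 192 other bins. The density was 45.5 peaks per Mb in gene-poor bins and 232 in other bins. Genes themselves covered 15.1% of gene-poor bins and 64.0% of other bins. In the 21 bins with the least gene cover, under 10%, H3K4me2 covered 1.16%, and in the 89 bins with 65% or more it covered 29.2%.

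Genes that lay in gene-poor bins also carried the mark less often. Over the whole genome 20582 of 27444 protein-coding genes carried H3K4me2 (75.0%), counting a gene as a carrier where 200 bp or more of it lay under peaks, or 50% in genes shorter than 400 bp. A base or more lay under a peak in 75.6% of genes, and a summit lay inside 73.0%. In gene-poor bins 805 of 1885 genes were carriers (42.7%), against 19777 of 25559 in other bins (77.4%). Genes in gene-poor bins were shorter, with a median of 1560 bp against 2105 bp, yet all genes of the same lengths would have given 66.0% in gene-poor bins and 75.7% in other bins. The gap was seen on all 5 chromosomes, where carriers were 76.8% to 78.2% of genes in other bins. In gene-poor bins the lowest share was that of chromosome 2, with 208 of 578 genes, and the highest that of chromosome 4, with 208 of 366 (56.8%). The 578 include 100 successive genes without the mark, on the stretch with mitochondrial sequence described below. The place of chromosome 2 as the lowest depends on them, and they are also among the 1885 genes of all gene-poor bins. Peaks that did lie in gene-poor bins were narrower, at a median of 814 bp against 991 bp elsewhere, and nearly as strong, with a median fold of 3.29 against 3.38. H3K36me3 thinned as well, with 28.7% of genes in gene-poor bins, against 51.5% in other bins and 49.9% in all.

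**Figure D1:**
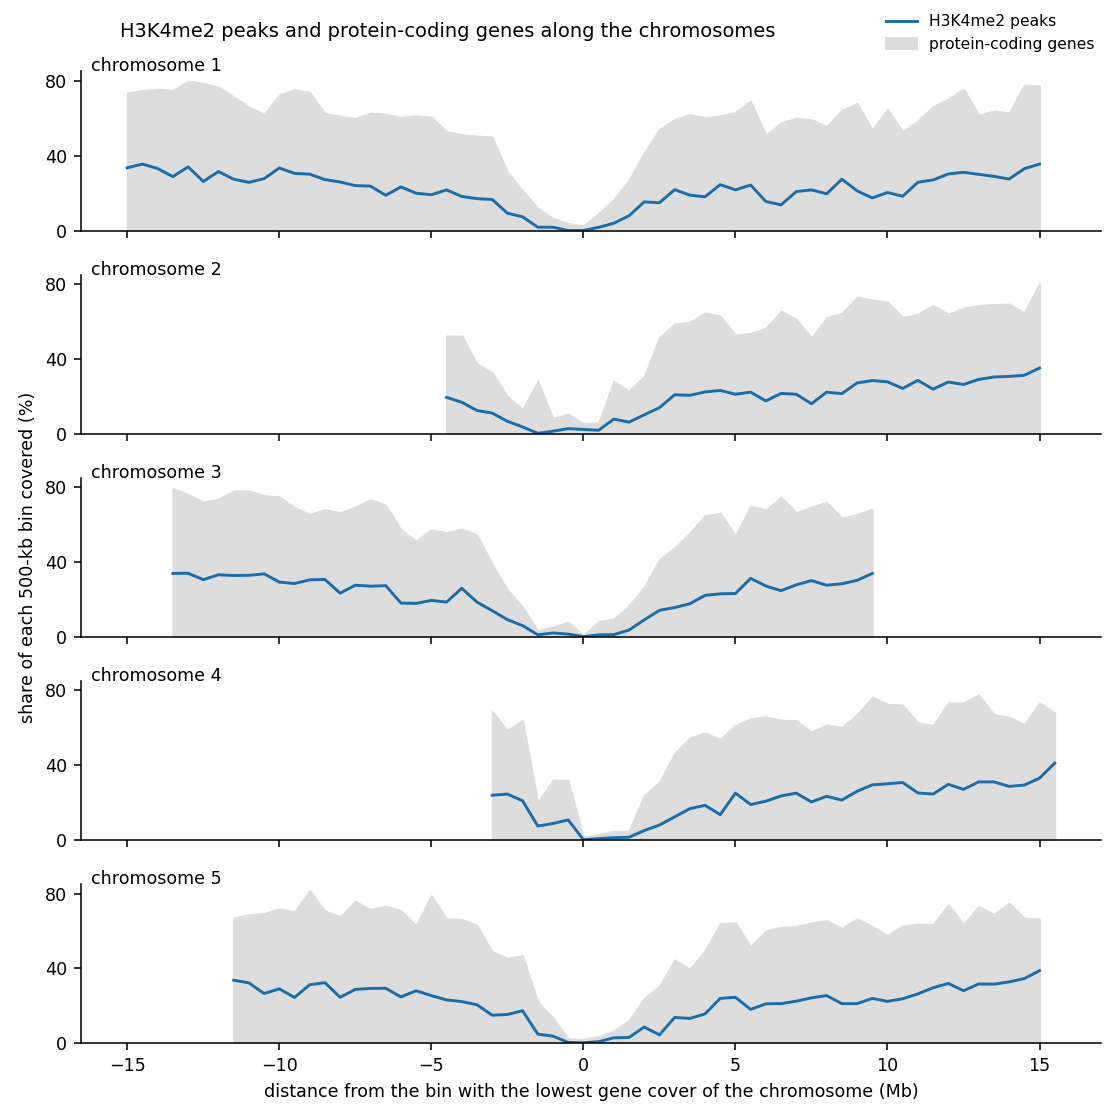
Share of each 500-kb bin covered by H3K4me2 peaks (blue line) and by protein-coding genes (grey area), against the distance in Mb from the bin with the lowest gene cover, for the 5 chromosomes. H3K4me2 is near 0 around the gene-poorest bin of each chromosome and highest in the bins farthest from it, and over all gene-poor bins it covers 4.09% of bases, against 24.8% elsewhere.

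Long stretches held no listed H3K4me2 peak. The longest ran for 1.31 Mb on chromosome 1 from 14296203 to 15607266, around the centromere, and held 11 protein-coding genes. The running numbers in the peak names skip 2 there, and skipped numbers are read here as peaks called and left out before deposit. A stretch of 0.469 Mb on chromosome 2, from 3056815 to 3526146, held 100 protein-coding genes and not a single peak. It is the stretch known to carry a copy of much of the mitochondrial genome, and it includes the transporter gene ABCC13 and the proton pump gene HA6. Neither trimethyl mark was carried by any of the 100 genes. No H3K4me2 peak number is missing there, so on that reading none was called and then left out. Sequence that the mitochondrial and nuclear genomes share draws reads from both, and the sources used here do not say how the authors treated such reads. At the other extreme, H3K4me2 covered 38.8% of the last bin of chromosome 5 and 41.1% of the short last bin of chromosome 4.

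Genes at the end of chromosome 5 also formed the longest unbroken row of carriers. All 57 successive protein-coding genes from AT5G66900 to AT5G67411 carried H3K4me2, under 59 peaks. Of them 45 carried H3K4me3, against 62.7% of all protein-coding genes, and 31 H3K36me3, against 49.9%. The row was picked for H3K4me2, so shares above those of all genes are no trait of the row. Of all 20582 carriers, 12778 had all 3 marks, 3546 had H3K4me3 without H3K36me3 and 71 had H3K36me3 without H3K4me3. The row included ABA1, of abscisic acid synthesis, HEC1 and ALC, both for bHLH factors of the carpel and fruit, and ICU2, for the catalytic subunit of DNA polymerase alpha. Rows of carriers had a median length of 3 genes and rows of genes without the mark a median of 1. Since 75.0% of all protein-coding genes were carriers, their rows would be the longer in a random order of genes as well.

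Protein-coding genes carried H3K4me2 far more often than pseudogenes and most RNA genes. Each class was read from genes that overlap no protein-coding gene. Pseudogenes, among which this annotation counts many transposon remnants, carried it in 180 of 3852 cases (4.67%), and tRNA genes in 7 of 562 (1.25%). The shares were 15.4% for long non-coding RNA genes, 21.1% for microRNA genes, 23.8% for transcribed pseudogenes, 28.4% for genes of other RNA, 42.9% for small nucleolar RNA genes, and 86 of 191 other non-coding RNA genes carried it. All 79 antisense RNA genes overlap protein-coding genes, so their peaks cannot be told from those of the partner gene. Small nucleolar RNA genes were the class in which H3K4me3, at 79.3%, and H3K36me3, at 68.0%, were found on many more genes than H3K4me2. Their median length is only 92.0 bp. While 87 of them carried H3K4me2, 24 peaks had their summit in such a gene and outside protein-coding genes. Many of the 87 thus lay under a peak with its summit elsewhere.

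Pseudogenes carried the mark less often than genes of the same length. Pseudogenes of 1600 to 3199 bp carried H3K4me2 in 4.31% of 1160 cases, and protein-coding genes of that length in 83.7% of 12282. At 400 to 799 bp the shares were 3.93% of pseudogenes, 41 of 235 transcribed pseudogenes, 21.0% of long non-coding RNA genes, 54.4% of 57 other non-coding RNA genes and 34.2% of protein-coding genes. At 800 to 1599 bp, 44.0% of 50 long non-coding RNA genes carried the mark, against 62.7% of protein-coding genes. Both classes thus carried the mark more often at the greater length.

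Non-coding genes that carried the mark could do so as strongly as coding genes. The transcribed pseudogene AT3G28350 had a fold of 10.3 on chromosome 3 from 10608305 to 10609336, and NMT2, listed as a transcribed pseudogene, had 8.62 with neither trimethyl mark. The long non-coding RNA genes AT1G04033 and AT4G05710 had folds of 10.2 and 9.92. The peak on AT1G04033 is also that of AT1G08775, a gene of other RNA, so it cannot be credited to either gene alone. The strongest pseudogene peak lay on AT2G09800, at a fold of 8.79. Among microRNA genes the highest folds were those of MIR162a, whose microRNA targets the Dicer gene DCL1, at 5.39, and of MIR861 and MIR159b, at 5.14 and 4.48. MIR159b is a source of the microRNA that restrains GAMYB factors. MIR166b, whose microRNA targets class III HD-ZIP genes, had 3.96. U2.2, a gene for a spliceosomal RNA, lay under a peak of 2772 bp with a fold of 7.20. The peaks on microRNA genes are far longer than the genes themselves, which measure 120 to 196 bp for the 5 with the highest folds, under peaks of 996 to 2968 bp.

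Most summits, 21491 (92.7%), lay in protein-coding genes. The 1698 others had narrower peaks, at a median width of 644 bp against 1001 bp, and lower folds, at 3.07 against 3.39. Of them 824 lay in no annotated gene of any class, 233 in long non-coding RNA genes, 197 in transcribed pseudogenes and 182 in pseudogenes. The median distance of these summits to the nearest protein-coding gene was 809 bp, and 93 (5.48%) were more than 5000 bp away.

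Longer genes carried H3K4me2 more often, and the stretch under peaks lengthened far less than the genes did. Genes were split into 10 classes of equal number by length. In the shortest class, up to 770 bp, 29.4% of 2745 genes carried the mark, and in the longest, from 4233 bp, 92.6% of 2745 did. Long genes offer more room to meet a rule of 200 bp, and the direction turns with the rule: with 50% of the body required, 27.4% of the shortest and 7.03% of the longest class carried it. The median length under peaks in carriers was 440 bp in the shortest class, reached 1031 bp in the fifth class and did not exceed 1315 bp in any. As a share of the body it was 85.8% in the shortest class and 22.8% in the longest. The median fold of the carriers changed little, from 3.17 in the shortest class to 3.60 in the eighth and ninth. H3K4me3 rose with length in the same way, from 15.8% to 87.1% of genes, and H3K36me3 from 9.03% to 76.4%.

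**Figure D2:**
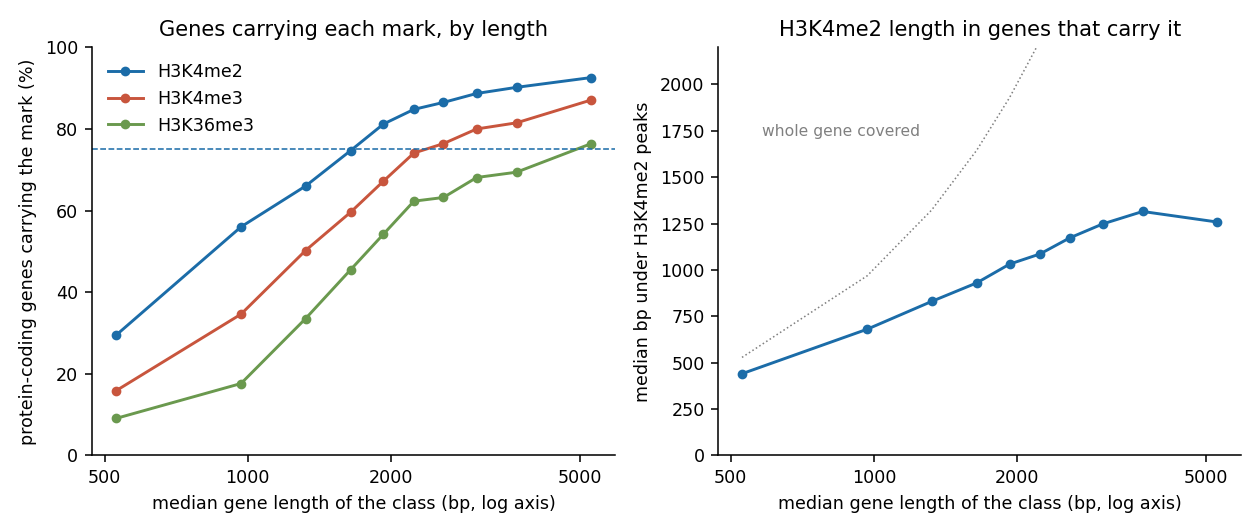
Left, share of protein-coding genes carrying H3K4me2, H3K4me3 and H3K36me3 in 10 classes of gene length, with a dashed line at 75.0%, the H3K4me2 share of all genes. Right, median bp under H3K4me2 peaks in the genes that carry it, with a dotted line where the whole gene would be covered. The share rises from 29.4% to 92.6% while the covered stretch levels off near 1.3 kb.

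A small group of genes was covered from end to end. Peaks lay over at least 95% of 715 carriers (3.47%), whose median length was 930 bp. The longest was IRE, for a kinase of root hair growth, with 99.7% of 5532 bp under a peak on chromosome 5 from 25023173 to 25029101 and a fold of 8.84. The chromatin remodelling gene chr31 was covered over 100% of 4986 bp at a fold of 7.44, and PPC3, for a phosphoenolpyruvate carboxylase, over 99.6% of 4703 bp at 8.76. The MAP kinase kinase kinase gene NP3 had 96.7% of 4127 bp at a fold of 9.33, and APL3, for a subunit of the starch-making ADP-glucose pyrophosphorylase, had 96.0% of 3922 bp at 4.87. TRM13 was covered to the same extent, 98.5% of 3428 bp, at a fold of only 2.34. At the other end 2925 carriers (14.2%), with a median length of 4169 bp, had less than 25% under peaks.

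Wide peaks on single genes lay on CMT3, the DNA methyltransferase of CHG sites (5223 bp, fold 6.18), TOPII, for the DNA topoisomerase that passes strands (5071 bp, 7.46), the proton pump gene HA4 (5066 bp, 5.81) and HAP8, needed for male gametophyte function (4133 bp, 5.64). The others among the 8 widest were the peak on chr31 and those on CALS5 (4632 bp, fold 3.20), GSL04 (4549 bp, 3.79) and CalS7 (4001 bp, 3.31), which are callose synthase genes of 10471 to 12062 bp.

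Most genes with H3K4me2 had a single peak. Of all protein-coding genes 18412 held 1 summit, 1503 held 2, 101 held 3, 11 held 4 and 2 held 5, and 7415 held none. In the longest class 15.1% of carriers held 2 or more, against 0.586% in the second shortest. TIL2, for a catalytic subunit of DNA polymerase epsilon, held 5 summits and neither trimethyl mark. CALS5, whose callose wall surrounds developing pollen, held 4, the strongest at a fold of 7.96, also with neither. ASY2, for a protein of the meiotic chromosome axis, the sulfate transporter gene AST56, RIP5, whose protein binds ROP GTPases, and EIR1, the auxin efflux carrier also called PIN2, held 4 each and carried H3K4me3 but not H3K36me3.

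Some very long genes had no H3K4me2 base at all. The longest was SYD, for a SWI/SNF chromatin remodeller, with 17067 bp. After it came ATMIN7 (11437 bp), for a guanine nucleotide exchange factor of vesicle traffic, the myosin gene MYA2 (10558 bp), CEF (8790 bp), WRKY19 (8171 bp), the villin gene VLN3 (8024 bp), ABCC13 (7991 bp) and SRFR1 (7569 bp), a negative regulator of immunity. All but ABCC13 carried both H3K4me3 and H3K36me3. Peak numbers run along the chromosomes, and numbers absent from the list are read as called peaks that were left out before deposit. The list keeps 62.8% of 36905 numbers. Between the listed peaks on either side, 8 numbers were missing at SYD, 8 at CEF, 6 at VLN3 and 2 to 5 at the other 4. H3K4me2 at these genes may therefore have been called and left out. Across all genes without a base under a peak and with peaks on both sides, 2029 of 6700 (30.3%) had no number missing.

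FPA was of the same kind, with both trimethyl marks, no listed H3K4me2 peak over its 6009 bp and 6 numbers missing between its flanking peaks.

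H3K4me2 sat further into the gene than H3K4me3. The gene table gives no strand, so positions were counted inward from the gene end nearer the H3K4me3 summit. In 13061 genes with 1 summit of each mark, the H3K4me3 summit lay at a median of 285 bp and the H3K4me2 summit at 598 bp. The paired shift had a median of 310 bp inward, and the H3K4me2 summit was the inner of the 2 in 11145 genes (85.3%). Choosing the end by H3K4me3 leaves more room on the inner side, which favours an inward shift, so the difference between gene groups measured in this way says more than the shift itself.

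That difference followed H3K36me3. In the 11005 genes that also carried H3K36me3 the shift was 327 bp inward and the H3K4me2 summit was the inner in 91.1%. In the 2042 genes with H3K4me2 and H3K4me3 alone the median shift was 2.00 bp and the share 54.4%. Among genes of 2 to 3 kb the values were 327 bp in 4019 genes with H3K36me3 and 1.00 bp in 621 genes without it, so the contrast was as large within a narrow range of lengths.

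The cover of genes of at least 2000 bp gave the same picture base by base. In genes with all 3 marks H3K4me2 covered 5.84% of genes at the end itself, 67.3% at 250 bp inward and 96.2% at 750 bp, its highest. H3K4me3 in the same genes was on 94.4% at 250 bp and peaked at 98.5% at 500 bp. At 1500 bp inward H3K4me2 was still on 40.4% of them, H3K4me3 on 11.4% and H3K36me3 on 84.3%. In genes with H3K4me2 and H3K4me3 but no H3K36me3, H3K4me2 covered 30.2% at the end, 90.2% at 250 bp and 96.1% at 450 bp, so it stood beside H3K4me3 and reached further in, with 42.1% at 1500 bp against 12.1%.

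**Figure D3:**
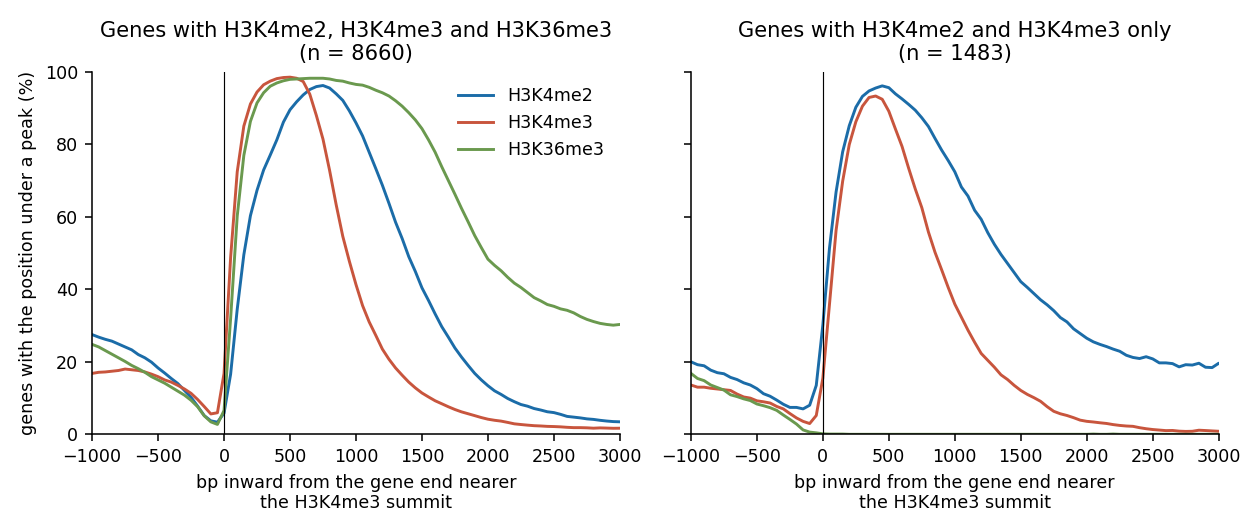
Share of genes of at least 2000 bp with a position under a peak, against the distance in bp inward from the gene end nearer the H3K4me3 summit, for H3K4me2, H3K4me3 and H3K36me3. In the 8660 genes with all 3 marks (left) the H3K4me2 curve lies inward of the H3K4me3 curve and is highest at 750 bp, and in the 1483 genes without H3K36me3 (right) it rises with H3K4me3 and is highest at 450 bp.

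In genes with a pair of H3K4me2 summits and 1 H3K4me3 summit, the peak nearer the H3K4me3 side was mostly the stronger. The summits were named nearer and farther by position, so their places follow largely from the naming, and their folds do not. In 650 such genes the shift of the nearer summit from the H3K4me3 summit, counted positive inward, had a median of 1.50 bp. Its quartiles were -18.0 and 121 bp, so outward and inward shifts offset each other in that median. The nearer peak had a median fold of 4.41, and the farther summit lay at a median of 1618 bp inward with a fold of 2.45. The nearer peak was the stronger in 543 of them (83.5%).

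The strength of H3K4me2 differed with which other marks a gene carried. Peaks of genes with H3K4me2 alone had a median fold of 2.80 (quartiles 2.30 and 3.76, 4187 genes) and a median width of 706 bp. With H3K4me3 but no H3K36me3 the median fold was 4.67 (3.24 and 6.28, 3546 genes), and with all 3 marks it was 3.37 (2.73 and 4.20, 12778 genes), at widths of 1000 and 1083 bp. The order was the same in short, middle and long genes. In the 3 shortest length classes the medians were 2.84, 4.75 and 3.18, and in the 3 longest 2.83, 4.38 and 3.41. Since the fold is relative to H3 only, it is not a share of nucleosomes that carry the mark.

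Counted by peaks the same ranking appeared without reference to genes. Peaks that touched neither trimethyl mark, 6167 of them, had a median fold of 2.74, the 4036 that touched H3K4me3 only had 4.86 and the 12912 that touched both had 3.40. When peaks were ranked by fold, the share overlapping H3K4me3 was 42.0% in the 2319 weakest peaks and 88.5% in the 2319 strongest. Their median widths were 617 and 1218 bp. A wider peak has more room to overlap another by 1 bp, and the part of width in this rise was not tested. The share overlapping H3K36me3 was 37.0% in the weakest, 70.5% in the 2318 peaks with folds of 3.37 to 3.73, and 30.8% in the strongest. H3K36me3 was therefore most common on peaks of middling strength.

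**Figure D4:**
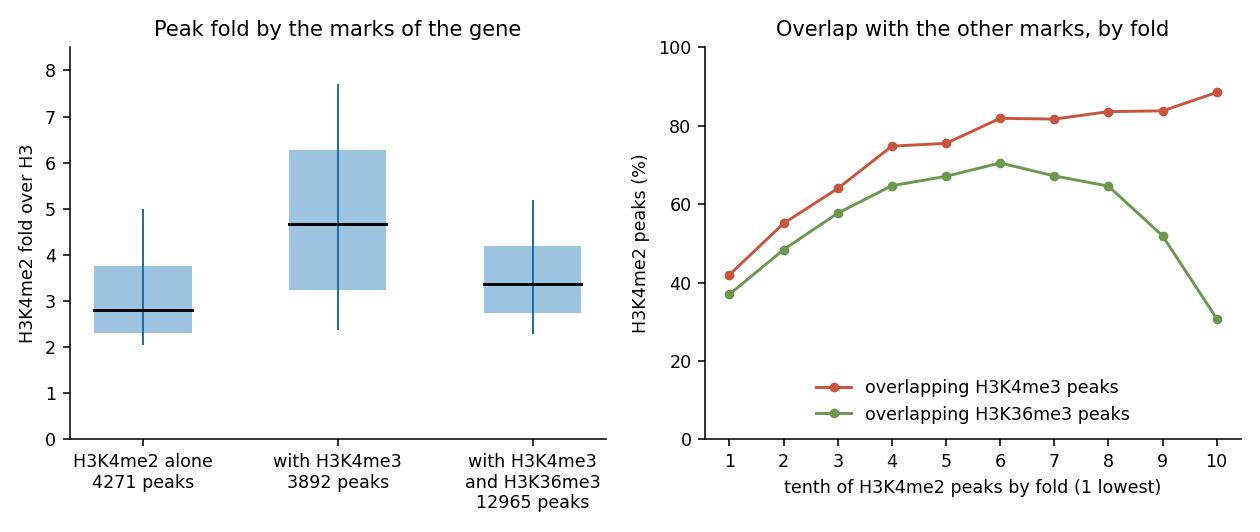
Left, H3K4me2 fold over H3 of peaks in genes with H3K4me2 alone, with H3K4me3, and with H3K4me3 and H3K36me3, where black lines are medians (2.80, 4.67 and 3.37), boxes run from the lower to the upper quartile and lines from the 10th to the 90th percentile of peaks. Right, share of H3K4me2 peaks overlapping H3K4me3 and H3K36me3 peaks by at least 1 bp in 10 classes of equal number by fold, which for H3K36me3 is 70.5% in the sixth class and 30.8% in the highest.

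Genes close to a neighbour carried H3K4me2 more often than isolated genes. Where the nearer protein-coding neighbour was 100 bp away or less without overlap, 82.7% of 4466 genes carried it, and where it was more than 5000 bp away 45.2% of 507 did, against 78.2% and 68.5% for all genes of the same lengths. Genes overlapping a neighbour stood at 80.5%, and those 1001 to 2000 bp apart at 66.0%. Among genes of the fifth to eighth length class the shares were 88.0% where neighbours overlapped and 64.1% beyond 5000 bp. Spacing and gene-poor bins go together, and their parts in this were not told apart. The median fold of carriers was not lower in isolated genes, at 3.67 beyond 5000 bp and 3.43 within 100 bp.

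Few H3K4me2 peaks touched more than 1 gene. Of all peaks 20810 (89.7%) touched 1 protein-coding gene and 1037 (4.47%) touched 2 or more, of which 33 touched 3. Peaks on 2 or more genes were wider, with a median of 1233 bp, and somewhat stronger, with a median fold of 3.65 against 3.38 for those on 1 gene. Since 6831 protein-coding genes overlap a neighbour, a peak that touches 2 genes need not bridge separate ones.

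Gene lists for pathways, complexes and cell types were then read against the share of all genes, 75.0%, and against the share in all genes of the same lengths. They are counts of these genes in a single pooled list, with no test. The fold given for a list is the median over its carriers of the highest fold with its summit in the gene, for which all protein-coding genes gave 3.49.

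Cell cycle genes stood out for strong peaks. The mark was on 37 of 38 (same lengths 84.0%) with a median fold of 5.58, and 84.2% of the list still carried it when only the stronger 50% of peaks by −log10 p were kept, against 40.7% of all genes. CDKB2;2 and CYCA1;1, for a mitotic kinase and a cyclin, both had folds of 10.2, CYCB2;2 had 9.40 and MCM7, of the replicative helicase, had 8.85. WEE1, for a kinase of the DNA replication checkpoint, had 8.22, while CDKA;1, for the main cell cycle kinase, and RBR, for the retinoblastoma-related repressor, had 2.46 and 2.53. The single gene without it was CYCA2;1, where 3 numbers were missing.

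The proteasome had the mark just as widely but at ordinary strength. It was on 32 of 33 subunit genes (same lengths 86.3%) with a median fold of 3.26, and all 33 carried both trimethyl marks. Folds of the first 4 carriers, PAD1, PAE1, PAE2 and PAF1, were 3.13, 4.56, 3.98 and 2.94, and the exception was PAC1, of the alpha ring. The highest was RPN5A, of the lid, at 8.68.

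Genes of the 2 lists of methyltransferases and demethylases carried it in all cases found in the table. All 8 H3K4 methyltransferase and complex genes found, of 11 symbols, did so (same lengths 90.7%). Their folds were 6.23 for WDR5A, 5.95 for ATX3, 5.51 for ATX4, 4.60 for ATX5, 4.20 for ATXR3, 3.59 for ATX2, 3.55 for ASH2R and 3.00 for ATXR7. The list of LSD1-like and JmjC demethylases also holds REF6 and ELF6, which are known for acting on lysine 27. All 9 of its genes found, of 12 symbols, carried the mark (same lengths 91.2%), with 2.29 for REF6, 2.80 for ELF6, 5.92 for JMJ18, 5.21 for LDL1, 4.66 for LDL2, 2.35 for LDL3, 4.41 for FLD and 3.63 for JMJ14. JMJ15 was the exception in state, with H3K4me2 alone at a fold of 4.57. These are long genes, at median lengths of 6846 and 5303 bp, in which nearly all genes carried the mark.

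Stress-inducible genes carried it too. The list of cold and dehydration genes had 17 of 18 (same lengths 72.0%) at a median fold of 4.65, with H3K36me3 on 5, against 49.9% of all protein-coding genes. The genes for the cold response factors CBF1, CBF2, CBF3 and CBF4 reached folds of 6.05 to 8.90, the last on CBF4, and RD29A, a dehydration-induced gene, had 7.25. CBF1 to CBF3 and KIN1 and KIN2 are neighbouring near-copies whose reads may be shared, which leaves each value uncertain, and KIN1 was the single gene without the mark. The heat shock list had 15 of 17 (same lengths 73.1%), with HSFA7A and HSFB1 at 6.05 and 6.04, and without it HSP17.4 and MBF1C, a coactivator gene that carried both trimethyl marks.

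The lists of auxin genes stood on either side of the share of all genes. Of 29 Aux/IAA genes, whose proteins are short-lived repressors, 27 carried H3K4me2 (same lengths 75.4%), with IAA17 highest at a fold of 6.47 and IAA27 and IAA29 without it. Of 21 auxin response factor genes, 14 carried it (same lengths 90.4%). Those without it were ARF12, ARF13, ARF14, ARF15, ARF20, ARF21 and ARF22, which are known as recent copies of each other, and they carried neither trimethyl mark. At 5 of these 7 no called number was missing. Of the 7, 6 lay in gene-poor bins, where 42.7% of genes carried the mark, and of the 14 others none did. Near-copies can share reads, and whether that lowers the calls here was not tested. All 14 others, among them ARF5, ARF7 and ARF19, which drive auxin responses in embryo and root, carried it at folds of 2.04 to 5.58.

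Starch and sucrose genes carried the mark at 24 of 27 (same lengths 91.4%) with a median fold of 4.43, and DPE1, ISA3 and SEX4, of starch trimming and breakdown, had 8.37, 6.63 and 6.69. The exceptions SUS4, SUS5 and SUS6 are all sucrose synthase genes and carried no mark. Chlorophyll synthesis genes were weaker, with 17 of 21 (same lengths 83.7%) at a median fold of 2.81. Their 3 genes HEMA1, GUN4 and CRD1 carried both trimethyl marks without H3K4me2, at 1 or 2 missing numbers each, and PORA carried none.

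Glucosinolate genes, which make the defence compounds of the cabbage family, stood lower at 17 of 26 (same lengths 82.3%). In the indole branch CYP79B2, CYP79B3 and CYP83B1 had folds of 8.90, 5.37 and 4.41, and the regulators MYB34, MYB51 and MYB122 had 7.79, 4.47 and 2.63. The sulfotransferase gene SOT16 had 2.67. In the aliphatic branch SOT17 had 6.34, MYB28 3.44, BCAT3 3.17, AOP1 3.03, MAM1 2.71, SOT18 2.25 and CYP79F2 2.13. The 9 genes without it were CYP79F1, CYP83A1, MAM3, BCAT4, AOP3, MYB29 and MYB76 of the aliphatic branch and the myrosinase genes TGG1 and TGG2. The branches were set apart after the values were seen. CYP79F1 and CYP79F2, and TGG1 and TGG2, are near-copies that can share reads.

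Root and vascular markers had lower shares than genes of their lengths, and leaf epidermis markers had nearly the same. H3K4me2 alone, the state of 15.3% of all protein-coding genes, was that of 9 of 31 root, 10 of 28 vascular and 12 of 30 leaf epidermis markers. Root markers had the lowest share, 17 of 31 (54.8%, same lengths 78.9%), with a median fold of 2.85. Of the stem cell niche genes WOX5 and PLT1 had no mark, and PLT3, PLT2, SCR and SHR had folds of 6.21, 4.43, 3.10 and 2.91. Of the root hair genes RHD6, RSL1, RSL4 and EXPA18 had none, CPC, a regulator, had 7.76, COBL9 and EXPA7 had 2.55 and 1.91, and LRX1 carried the mark with no summit inside. Vascular markers had 19 of 28 (same lengths 85.6%), among them IRX3 at 4.83 with H3K4me2 alone, a cellulose synthase of secondary walls. Of the regulators of xylem and secondary walls VND7, MYB46 and MYB83 had no mark, and NST1 and SND1 had 4.70 and 2.14. Leaf epidermis markers had 24 of 30 (same lengths 80.6%). Among the genes of stomatal development ERL2, TMM, ERL1, POLAR, SPCH, SCRM2, SCRM and BASL had folds of 2.46 on BASL to 6.81 on ERL2, and MUTE, FAMA, EPF1, EPF2 and EPFL9 had none. In a whole seedling such genes are active in few cells.

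Pollen and sperm genes, whose cells are absent from seedlings at this age, carried it at 16 of 24 (66.7%, same lengths 77.2%). H3K4me2 alone was the state of 9 of the 24, against 15.3% of all protein-coding genes. GEX2 and HAP2, for gamete proteins needed at fertilisation, had folds of 9.02 and 8.02, GEX3 had 6.68 and the pollen tube receptor kinase gene ANX1 had 6.16. VGD1, TIP1;3, DAZ1, AGL66, AGL104, STP9, STP6 and PRK2 had none. H3K4me3 was carried by 6 of the 24, against 62.7% of all protein-coding genes. Meristem and leaf polarity genes stood at 33 of 36 (same lengths 87.4%), with STM, CLV3 and YAB5 as the exceptions. BOP1, of the boundary between stem and leaf, had 6.88, KNAT6 had 6.19 and WUS, of the stem cell niche, 2.49.

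**Figure D5:**
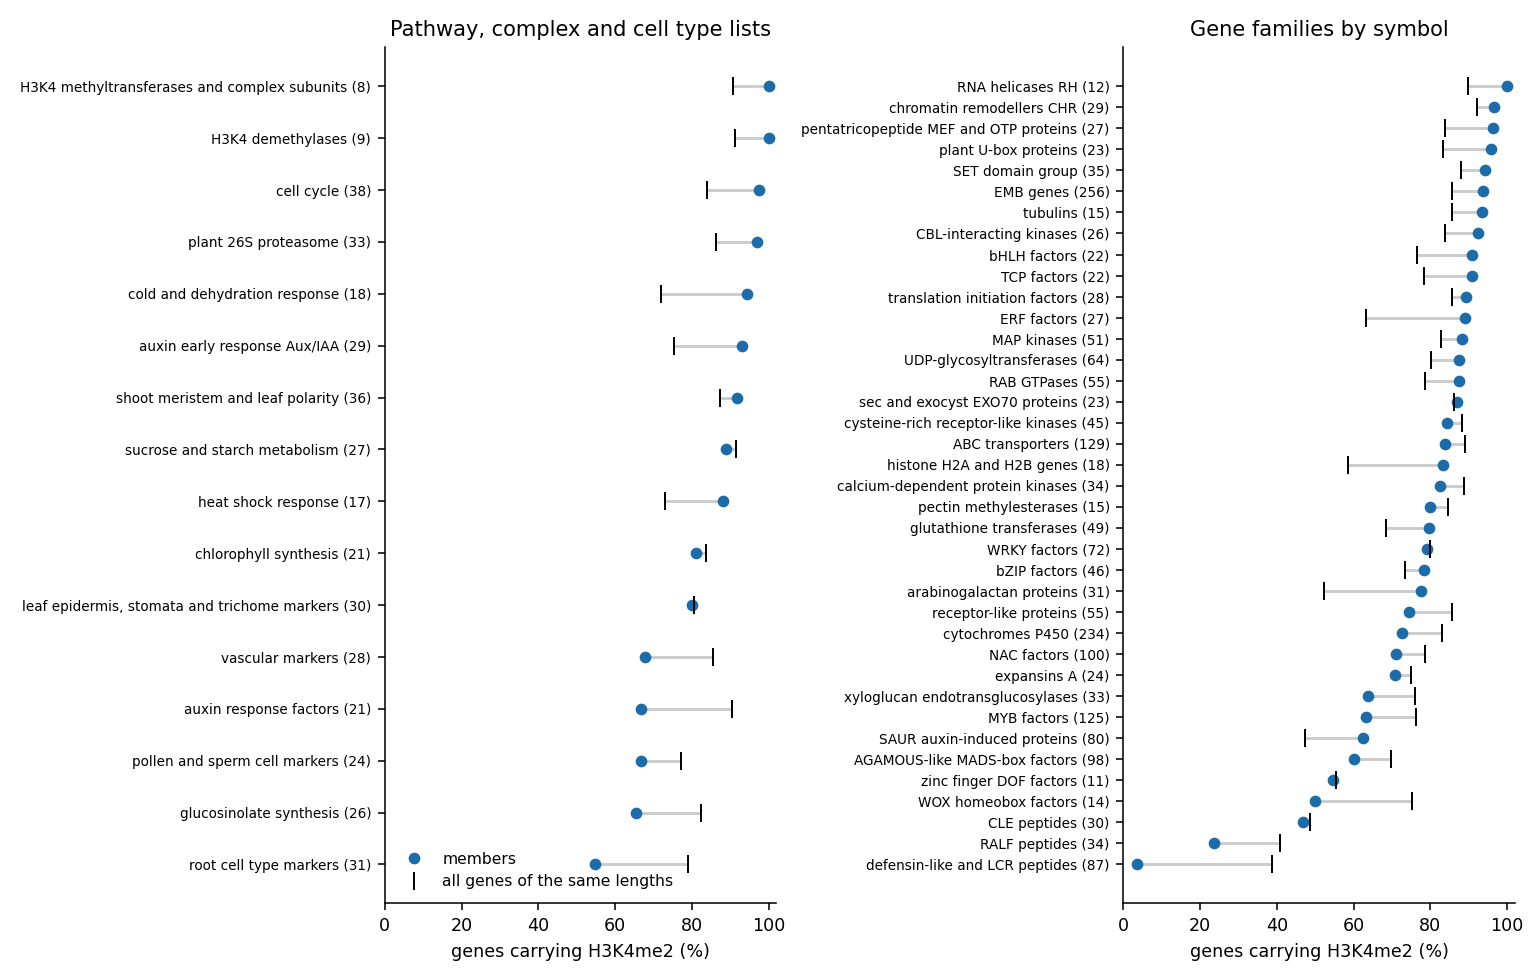
Share of genes carrying H3K4me2 in 16 gene lists (left) and 38 gene families recognised by symbol (right), with the number of members in brackets (blue points), and the share in all genes of the same length classes (black ticks). Lists run from 54.8% for root markers to 100% for H3K4 methyltransferases and demethylases, and families from 3.45% for defensin-like peptides to 100% for RNA helicases.

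Families recognised by symbol, with at least 10 members, spread more widely. Genes named ASK were set aside, since that symbol is shared by F-box partners and unrelated kinases, and they carried the mark at 15 of 23 (46.5% at their lengths). Of the 38 other families 25 had a share above that of all genes and 21 above that of genes of the same lengths. All 12 RNA helicase genes carried H3K4me2 (same lengths 89.9%). Of 29 genes of the CHR group of chromatin remodellers 28 did (same lengths 92.2%), with SYD as the exception. Genes of both groups are long, at medians of 3266 and 5696 bp, and these shares differ little from those at their lengths. Genes named EMB, which are needed for embryo development, carried it at 240 of 256 (same lengths 85.6%). ERF factor genes, for ethylene response, had 24 of 27 although genes of their lengths had 63.3%, with DREB2C at a fold of 9.98 and ERF12 at 8.34. Genes for arabinogalactan proteins of the cell wall had 24 of 31 (52.2% at their lengths), SAUR genes, for short auxin-induced proteins, 50 of 80 (47.2%) and histone H2A and H2B genes 15 of 18 (58.4%).

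Several families had shares below that of all genes. Defensin-like and LCR peptide genes carried H3K4me2 in 3 of 87 cases (3.45%), against 38.8% in genes of their lengths, and the carriers PDF1.4, LCR69 and LCR68 had folds of 2.59, 2.29 and 2.09. At 47 of the others no called number was missing, against 30.3% of all genes without a base under a peak. RALF peptide genes had 8 of 34 (40.9% at their lengths) and WOX homeobox genes 7 of 14 (75.1%). CLE peptide genes, at 14 of 30 (48.5%), and DOF factor genes, at 6 of 11 (55.3%), were near the share at their lengths. MYB factor genes had 79 of 125 (76.3% at their lengths), and AGAMOUS-like MADS-box genes had 59 of 98 (69.8%). H3K4me2 alone was the state of 42 of the 125 MYB factor genes, against 15.3% of all genes. Xyloglucan endotransglucosylase genes had 21 of 33 (75.9% at their lengths), expansin A genes 17 of 24 (74.8%), NAC factor genes 71 of 100 (78.5%) and cytochrome P450 genes 170 of 234 (83.0%). Many of these families are tandem arrays of near-copies that can share reads, and the part of that in their shares was not tested.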

How the data were processed

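The deposited H3K4me2 list, and the H3K4me3 and H3K36me3 lists for overlap, have the narrowPeak layout. Their peak names say that the authors called pooled libraries of each mark over pooled H3. The deposited fold is the caller's ratio over H3, the deposited −log10 p is the caller's, and the deposited score is the −log10 p times 10, cut to whole numbers. The submitters' processing notes name MACS2, R 3.3.2, SAMtools 1.3, Picard 2.2.4, Bowtie2 2.2.6 and Trimmomatic 0.33, and TAIR10 as the genome. Their settings, and any rule by which called peaks were left out, are not stated in these sources. That peaks were left out is read from the gaps in the peak numbers. Depth per library is unknown.

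Peaks were placed on the nuclear genes of the NCBI RefSeq gene table (TAIR10.1, no strand), none of whose coordinates are printed. The share of peak bases in protein-coding genes was 93.5% with no offset and 92.6% with offsets of 100 bp to either side. Classes were counted away from protein-coding genes. A share at the same lengths is the mean, over members, of the share in all genes of their length class. Scripts ran in Python 3.11.15 with pandas 2.3.3 and numpy 2.4.6 and were tested on simulated peaks. With 1 pooled list, no test between samples was possible, and every value is a description.

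The members and all lists were chosen with earlier results of these data known, and in the 16 lists 394 genes matched 449 symbols. Named were, among genes with a symbol, those with the highest fold or −log10 p, the widest or weakest peaks, the most summits, the longest with and without cover, list members outside the majority or first in a list, and the extremes of families and RNA classes. Other names were chosen after their values were seen. Under 6 symbols the table holds an unrelated gene, and these were removed. No genome or promoter sequence was at hand, so planned counts of promoter motifs were not made, and positions by strand were replaced as described. Alternatives were other rules for carrying the mark, stronger peaks only, and other bins.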

Additional observations from a re-analysis of the deposited data

How the results depend on the processing

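No paired analysis was possible because the list pools the libraries and no value belongs to a single replicate or genotype. Of 25 changes to the main values 22 moved them by more than their binomial or counting interval, which covers counting error at most. For the cover of bins that interval takes every base as independent, so it is too narrow. Keeping fewer peaks, or asking for more of the body, can only lower the share of genes or bases with the mark. The share of protein-coding genes with H3K4me2, 75.0%, was 34.3% with 50% of the body required, 73.0% with a summit inside, 75.6% with 1 bp, and 40.7% with the stronger 50% of peaks by −log10 p and 40.7% by fold. For the shortest and longest of 10 length classes it was 27.4% and 7.03% with 50% of the body, which turns the order round, and 14.4% and 51.0% with the stronger peaks. Cover of gene-poor and other bins was 2.76% and 23.8% with the limit at 25% gene cover, 5.17% and 25.2% at 45%, 4.25% and 24.9% in bins of 100 kb, and 2.25% and 14.1% with the stronger peaks. The median width of the stronger peaks was 1110 bp. Overlap with H3K4me3, 73.1% at 1 bp, was 61.4% with 50% of the peak covered and 83.2% for the stronger peaks, and overlap with H3K36me3, 56.0%, was 55.0% with 50% covered. Peaks touching 2 or more genes were 3.18% with 200 bp in each gene. Of 81 such changes to single classes and lists 43 moved, and the cause was not tested.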

Other observations

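Genes of meiosis, a process absent from the shoots and roots of young seedlings, carried H3K4me2 at high fold. After SWI1, MMD1 and ASY1 were seen among the 12 genes with a symbol that had the strongest peaks, a list of meiotic genes was drawn up, so it was chosen after values were seen and is a description with no test. All 28 genes found in the table carried the mark, against 75.0% of all protein-coding genes and 90.1% at the same lengths, and the median fold was 7.61, against 3.49 for all carriers. H3K4me3 was on 26 of them, against 62.7% of all genes, and H3K36me3 on 12, against 49.9%. The median length of these genes was 3584 bp. In the length class of 3310 to 4233 bp H3K4me3 was on 81.5% of all genes and H3K36me3 on 69.4%. DMC1, for the recombinase of meiotic crossovers, SDS, for a meiotic cyclin, and SYN1, for the meiotic cohesin, each had a fold of 10.5. SPO11-2, for a subunit of the enzyme that cuts DNA to start recombination, had 10.0, and its partner SPO11-1 had 7.90. The axis gene ASY3 held 3 summits, the highest at 8.24, and the mismatch repair relatives MSH5 and MSH4 had 8.76 and 4.91. The lowest fold was 4.15 on ZYP1b, beside its near-copy ZYP1a at 8.07, which can share reads with it. The H3K4me2 alone state was that of OSD1, at 8.22, and JASON, at 6.50, both of which act in the meiotic divisions.

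Several rows of neighbouring genes outside gene-poor bins held no gene that carried H3K4me2. The longest, 26 genes from AT5G50500 to AT5G50720, holds paired copies of SPL13, SAE1B and HSD genes, and called numbers were missing there. A row of 22 genes from AT1G24793 to AT1G25211 holds LpxC1 to LpxC5, for an enzyme of lipid A synthesis, and 1 of its genes carried both trimethyl marks. A row of 22 from AT4G20520 to AT4G20680, one of 19 from AT3G21900 to AT3G22053 and one of 18 from AT1G58643 to AT1G59460 hold no gene with a symbol and neither trimethyl mark. Each row of 22 is touched by 1 listed H3K4me2 peak, and called numbers were missing in the row of 19 but not in those of 22 and 18. Symbols such as SPL13A and SPL13B name copies within a row, reads from identical copies cannot be placed uniquely, and the sources used here do not say how the authors treated them. Whether the missing marks come from that was not tested.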
